A study of Mus musculus with 12 samples.

Results

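Peaks of open chromatin that lie on copies of 4 mouse repeat names, RMER1A, RMER1B, RMER1C and RMER19B, were described in hepatocytes of fed and fasted mice. A peak was a member where the authors' annotation gave one of these names as the repeat under it, and 200 of the 52530 peaks met this rule. They were 42 peaks on RMER1A, 76 on RMER1B, 7 on RMER1C and 75 on RMER19B. The families had been selected on the fasting differences of these same data, in which many of their peaks were lower in fasted mice, so the fasting values of the members describe them and do not test them. Nuclei of hepatocytes were taken from the liver by INTACT, a method in which a genetic tag on the nuclei of a chosen cell type lets beads pull them out of a whole organ. Their open DNA was mapped by ATAC-seq, which uses a transposase that inserts sequencing adapters where chromatin is accessible. The 6 female HEP-INTACT mice were either fasted for 16 h from ZT12 or fed ad libitum and killed at the same time, with 3 mice in each state, and each liver gave 1 fresh and 1 frozen library. All 12 libraries, in 4 groups of 3, therefore come from HEP-INTACT females, and the sources used here give neither the driver and alleles behind that name nor the strain or age. The libraries held 3.69 M to 14.5 M reads in peaks when each column's smallest step is taken as 1 read.

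Interspersed repeats are copies of mobile elements scattered over the genome. RMER19B is annotated as a long terminal repeat (LTR) of the ERVK class of endogenous retroviruses, and LTRs carry their own promoters and binding sites for transcription factors. RMER1A, RMER1B and RMER1C are annotated with the class "Other". Cells keep many such copies closed by KRAB zinc finger proteins, the corepressor TRIM28, the histone methyltransferase SETDB1 and DNA methylation, and some copies have been taken over as enhancers of nearby genes. Because copies of one family resemble each other, short reads can match several of them, and the authors' treatment of such reads is not stated.

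One member lay inside a promoter window of the RefSeq sequence table, and its sequence is shown as the member closest to an annotated start. It is an RMER1B copy at chr10:59687230-59687430 (mm10, given on the plus strand from the RefSeq table of build GRCm38.p6). The start of the lncRNA gene Gm40672, which runs on the minus strand, is at 59687234, the 5th base of the peak. The sequence has 201 bases with a GC content of 57.7%.
RMER1B peak at Gm40672: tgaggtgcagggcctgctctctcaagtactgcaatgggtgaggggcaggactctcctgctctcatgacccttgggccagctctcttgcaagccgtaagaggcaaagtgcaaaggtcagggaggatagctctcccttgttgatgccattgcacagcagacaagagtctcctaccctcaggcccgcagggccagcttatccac
No letters are in capitals because none of the motifs searched on both strands occurred in it. These were the FOXA motifs TGTTTAC and TGTTTGC, which 2.52% and 3.37% of 32851 RefSeq promoter windows cut to the same length hold, and the HNF4A motif CAAAGTCCA, which 0.326% hold. The C/EBP motifs TTGCGCAA and TTGCNNAA, of which the second includes the first, occur in 0.134% and 7.51%, and the CTCF core CCACNAGG in 3.42%. The longer paired nuclear receptor, HNF1 and glucocorticoid response motifs occur in 0.0335%, 0.0548% and 0.274%. The absence of these letters says nothing about the factors.
This peak was among the weaker members. Its fresh fed libraries held 52.4, 69.0 and 63.7 normalized reads and its fresh fasted libraries 46.1, 46.2 and 22.6. Its frozen fed libraries held 28.6, 27.1 and 31.5 and its frozen fasted libraries 26.4, 14.8 and 8.90. The fasted values lay below the fed values within each preparation, but the log2 difference of -0.81 ± 0.30 (SE) did not pass the test (adjusted p = 0.0599). Freezing lowered it, with a log2 difference of -1.13 (adjusted p = 5.58e-04).

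The members were spread over 20 chromosomes and lay away from gene starts. In the authors' annotation 123 were intergenic and 77 lay in introns, 30 of them in intron 1, and the nearest came within 1.21 kb of a gene start. The median distance was 18.95 kb and the largest 357.66 kb, with 55 members within 10 kb and 18 beyond 100 kb. Unless RefSeq is named, distances and nearest genes here and below are those of the authors' annotation. By RefSeq starts of any gene class, 3 members were within 1 kb, and some starts lay far closer than the annotated distance. Examples are 11655 bp at the Gm16551 peak and 1099 bp at a 1700073E17Rik peak, where the annotation gives 113 kb and 40.3 kb. Each peak is a window of 200 bp, and 44 members shared a repeat copy or its surroundings with another member, so that the 200 peaks stand for 176 places more than 1 kb apart. Of the windows, 9 overlapped the one before. Coordinates of the repeats were not used, so the windows of a place, called a copy below, can lie on separate repeats. Mean levels over the 12 libraries ran from 28.9 to 400.8 normalized reads with a median of 100.6. This was close to the 97.8 over distal peaks, the 33996 peaks more than 1 kb from a gene start in the authors' annotation. The depth gave the median member between 34 and 184.5 reads per library, a counting error of 17.1% to 7.36%, which covers counting only, since PCR copies are not independent molecules.

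The hepatocyte label was checked against marker genes. Promoter peaks within 1 kb of the start were present for 7 of 8 hepatocyte markers, with 187 to 414 normalized reads at the highest peak of each, and the eighth, Ttr, had none. Of the other lists, 0 of 4 macrophage, 0 of 5 endothelial and 0 of 4 lymphocyte markers had a promoter peak. Among stellate cell markers 1 of 4 had one (Reln, 91.5 reads), and among bile duct markers 1 of 4 (Sox9, 98.4 reads). In these bulk libraries a copy open in fewer nuclei and a copy less open in each nucleus cannot be told apart.

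The comparison of fasted with fed mice asked how accessibility of hepatocyte chromatin differs after 16 h without food. Averaged over both preparations, 106 members were lower in fasted mice, 15 were higher and 79 did not pass the test (limma, two-sided, adjusted p under 0.05 over all peaks). Over all peaks 18.1% were lower and 16.5% higher, and over the distal peaks 25.4% and 14.8%. These counts follow from how the families were chosen and nothing is read from them. The log2 difference, fasted minus fed on the log2(normalized reads + 1) scale, had a median of -0.43 over the members, against 0.05 over all peaks, -0.05 over distal peaks, -0.09 over 2270 other LTR peaks and -0.11 over 294 peaks with other RMER names. The quartiles over the members were -0.996 and -0.06. The difference was negative at 157 members (78.5%), against 43.4% of all peaks and 54.7% of distal peaks. Of the members, 50 were lower and 4 higher by more than 1 and passed the test (5.62% and 1.53% of all peaks). All 6 fasted libraries lay below all 6 fed libraries at 54 members (7.79% of all peaks do) and above them at 7 (5.16%).
The families were alike in this measure except for the small RMER1C. RMER1A had 22 lower and 3 higher peaks of 42 and a median of -0.49, RMER1B 41 and 3 of 76 with -0.47, and RMER19B 40 and 7 of 75 with -0.43. RMER1C had 3 lower and 2 higher of 7 and a median of -0.12. Names next to RMER19B in the naming scheme, which the rule left out, had medians of -0.26 (RMER19A, 8 peaks), -0.01 (RMER19B2, 13 peaks) and -0.10 (RMER19C, 10 peaks). Some other RMER names were lower than RMER1A, at -0.75 (RMER6C, 7 peaks), -0.54 (RMER20C_Mm, 7 peaks) and -0.51 (RMER6A, 15 peaks). The larger RMER15 (54 peaks) and RMER10A (27 peaks) were at -0.06 and 0.03. Among the 27 repeat names with 40 or more peaks, RMER1A, RMER1B and RMER19B had the 3 lowest fasting medians, in this order. Among the 174 names with 7 or more peaks they ranked 9th, 10th and 12th from the lowest, and RMER1C 63rd. With such small numbers per name, the ranks of the names with few peaks are loose.

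**Figure D1:**
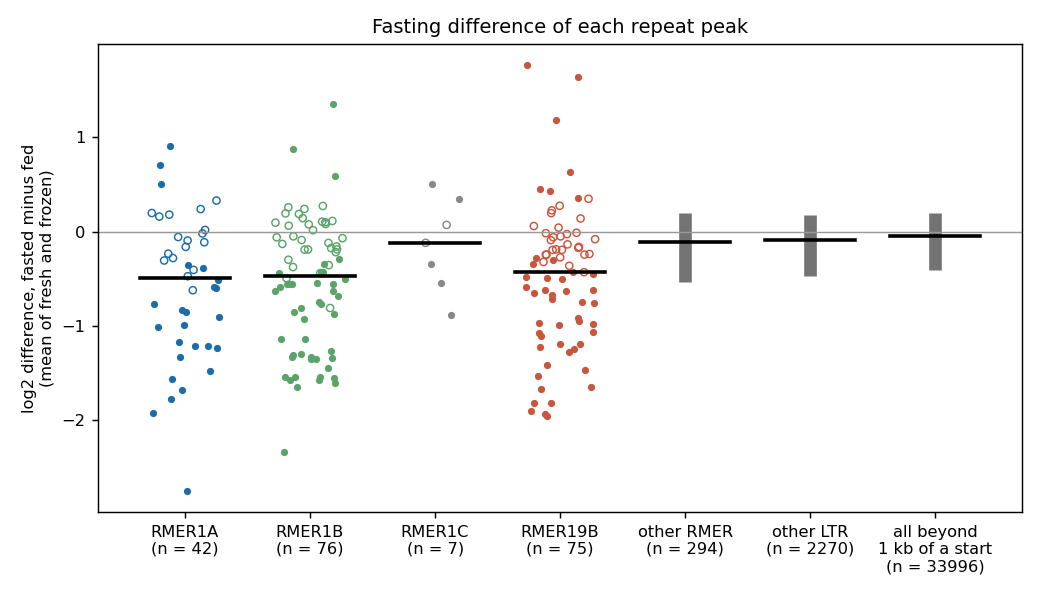
Log2 difference between fasted and fed mice (vertical axis, mean of fresh and frozen libraries) for each member by repeat name, with filled points for peaks that passed the test, open points for those that did not and black lines for medians. Grey bars on the right run between the quartiles of peaks with other RMER names, other LTR peaks and distal peaks. Distal peaks lie beyond 1 kb of a gene start in the authors' annotation. The medians of RMER1A, RMER1B and RMER19B lie between -0.49 and -0.43 and those of the 3 other groups between -0.11 and -0.05.

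Within each preparation the summed signal of the members was lower in every fasted than in every fed library. This follows from how the families were chosen, and nothing is read from it. As a share of all normalized reads in peaks, fresh fed libraries held 0.384%, 0.394% and 0.381% in the members and fresh fasted libraries 0.281%, 0.305% and 0.288%. Frozen fed libraries held 0.344%, 0.341% and 0.334% and frozen fasted libraries 0.242%, 0.262% and 0.249%. The ranges of fed and fasted libraries did not overlap within a preparation, and the frozen share was below the fresh one in each feeding state. Other LTR peaks together held 3.44% ± 0.0306 (SD, n = 3) in fresh fed and 3.20% ± 0.0518 in fresh fasted libraries, and 3.20% ± 0.0523 and 2.98% ± 0.0738 in frozen ones.
The differences were larger at weaker members. Of the 67 members with the fewest reads 39 were lower and the median was -0.72, of the next 66 members 35 with -0.46, and of the 67 with the most reads 32 with -0.28. The share of members with a negative difference was close in these sets, at 77.6%, 78.8% and 79.1%. The medians of other distal peaks showed the same order, at -0.15 for those below the median member in reads and 0.02 for those above it. Their differences were negative at 61.2% and 47.4%.

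Among members above the median level, the 5 with the strongest fall lay on RMER1A and RMER1B. The lowest was an RMER1B peak 113 kb from the start of Gm16551, a predicted gene (chromosome 9, 74735312 to 74735512). Fresh fed libraries held 168, 190 and 204 reads there and fresh fasted libraries 47.5, 63.4 and 15.8. Frozen fed libraries held 160, 172 and 173 and frozen fasted ones 38.2, 38.4 and 22.3. The states did not overlap, and the log2 difference was -2.34 ± 0.29 (SE, n = 3 mice each, adjusted p = 5.18e-04 by limma).
An RMER1A copy with windows 2.15 and 2.66 kb upstream of Vac14, which encodes the scaffold of the complex that makes the lipid phosphatidylinositol 3,5-bisphosphate, carried a pair of peaks. The window at 110616319 to 110616519 on chromosome 8 fell from 103 ± 9.13 to 17.8 ± 14.3 reads (SD over 3 mice), the largest fall among the members at -2.74 ± 0.43 (SE). The window at 110615810 to 110616010 fell from 194 ± 24.3 to 57.3 ± 27.95 reads, by -1.92 ± 0.33. In both windows and both preparations, fasted letter B was the highest of the fasted libraries and letter C the lowest. At the first window the fresh fasted libraries A, B and C held 12.2, 38.4 and 5.65 reads.
An RMER1B copy with windows 4.74 and 4.97 kb upstream of Wbp2, a coactivator that binds WW domains, also carried 2 peaks. At chromosome 11, 116091862 to 116092062, fresh fed libraries held 251, 235 and 241 reads and fresh fasted libraries 80.8, 109 and 71.2. Frozen fed libraries held 242, 223 and 256 and frozen fasted libraries 69.2, 90.7 and 60.1. The lowest fed library, at 223 reads, was far above the highest fasted one, at 109, with a log2 difference of -1.60 ± 0.14.
The peak with the smallest SE of these 5 lay on RMER1B in intron 1 of Magi3, a scaffold protein of cell contacts (chromosome 3, 104139117 to 104139317). It held 307, 313 and 306 reads in fresh fed, 121, 130 and 114 in fresh fasted, 247, 233 and 263 in frozen fed and 73.7, 68.9 and 66.8 in frozen fasted libraries. Both states and both preparations stood apart, and the fasting difference was -1.57 ± 0.08 (adjusted p = 1.37e-05 by limma). An RMER1B peak 24.1 kb from the start of Ambp, which encodes the secreted liver protein alpha-1-microglobulin with bikunin, fell from 158 ± 13.5 to 52.1 ± 10.2 reads (chromosome 4, 63130017 to 63130217), by -1.65 ± 0.14.
On RMER19B the falls reached -1.95. The peak 83.3 kb from Rnf32, a RING finger gene, held 154 ± 10.47 reads in fed and 40.8 ± 9.95 in fasted mice (chromosome 5, 29112612 to 29112812) and fell by -1.93 ± 0.17. A peak in an intron 24.0 kb from Slc7a15, an amino acid transporter gene, went from 89.5 ± 14.3 to 23.4 ± 4.70 reads (chromosome 12, 8563449 to 8563649), by -1.90 ± 0.20. A copy 4.61 to 4.80 kb upstream of Entpd8, an ectonucleotidase of the bile canaliculus, had 2 peaks that fell by -1.28 ± 0.13 and -1.24 ± 0.17, and a copy at Snhg11, a snoRNA host gene, had 2 that fell by -1.64 ± 0.16 and -1.07 ± 0.17.

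**Figure D2:**
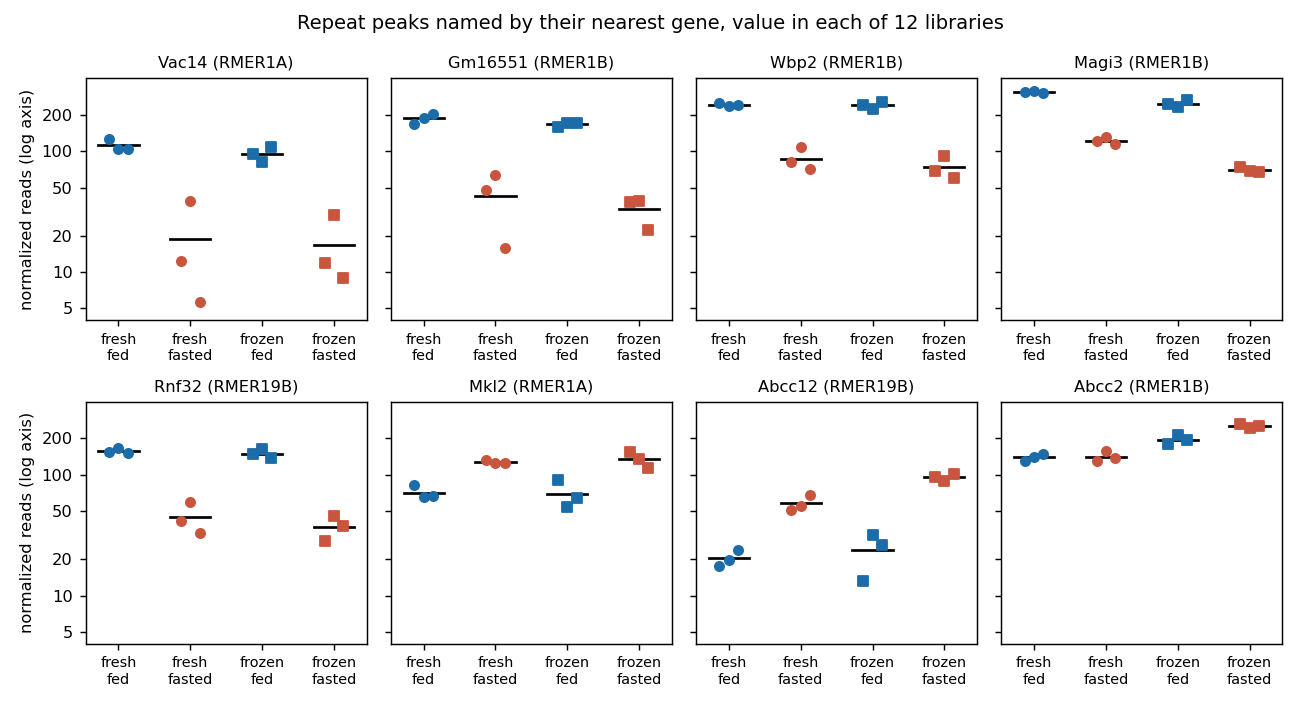
Normalized reads (log axis) of 8 members, each named by its nearest gene, in the 12 libraries, with circles for fresh, squares for frozen, blue for fed and red for fasted libraries and black lines for group means. The members at Vac14, Gm16551, Wbp2, Magi3 and Rnf32 are lower in every fasted than in every fed library, those at Mkl2 and Abcc12 are higher, and the Abcc2 peak is higher in frozen than in fresh libraries.

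The 15 members that rose in fasted mice lay at 13 places. The strongest rise was at an RMER19B copy with 3 overlapping windows on chromosome 8 (86208830 to 86209302). The authors' annotation gives the ABC transporter gene Abcc12 as nearest, 357 kb away, but a RefSeq start lay 50687 to 50959 bp away. The middle window of this copy held 17.7, 19.9 and 23.7 reads in fresh fed and 51.6, 55.6 and 67.8 in fresh fasted libraries. Frozen fed libraries held 13.1, 31.9 and 26.3 reads and frozen fasted ones 96.5, 88.9 and 102. The fed and fasted libraries did not overlap, and the 3 windows, which share reads, differed by 1.63 ± 0.17, 1.76 ± 0.22 and 1.18 ± 0.20.
Among members above the median level an RMER1A peak rose most, with Mkl2, a coactivator of serum response factor, as nearest gene. It lay in an annotated intron (chromosome 16, 13336977 to 13337177, intron 3 of 16), 21.3 kb upstream of the Mkl2 start used. It held 81.6, 65.1 and 66.4 reads in fresh fed, 132, 125 and 125 in fresh fasted, 90.5, 54.2 and 64.8 in frozen fed and 156, 136 and 113 in frozen fasted libraries. All 6 fasted libraries were above all 6 fed ones, and the difference was 0.90 ± 0.15 (adjusted p = 1.81e-03 by limma).
The next were an RMER1A peak in Tns1, a focal adhesion gene, at 0.71 ± 0.23, an RMER19B peak 119 kb from 1700036G14Rik at 0.63 ± 0.11, an RMER1B peak 28.04 kb from the proteasome subunit gene Psma6 at 0.59 ± 0.19 and an RMER1C peak 87.2 kb from Gm16294 at 0.51 ± 0.12. Taken over both preparations together, the fed and fasted libraries of these 4 overlapped, but within a preparation only those of the Tns1 peak did. The Tns1 peak no longer passed without fed letter B (0.72) or C (0.54), without fasted letter A (0.48) or C (0.65), or after scaling to peaks near gene starts (0.58). Nor did the Psma6 peak without fed letter A (0.63), B (0.52) or C (0.62), without fasted letter C (0.33) or after that scaling (0.46). At Psma6 fasted letter C stood above the others, with 140 reads in fresh and 223 in frozen liver against 91.4 to 120 in letters A and B.
A pair of rises outside the naming rule were picked after their values were seen. An RMER1B peak 5.09 kb from Acat1, which encodes a mitochondrial thiolase of ketone body and isoleucine metabolism, went from 34.9 ± 2.88 to 65.9 ± 15.4 reads, a difference of 0.87 ± 0.20 (chromosome 9, 53605157 to 53605357). An RMER1B peak 32.6 kb from Rusc2 went from 48.3 ± 19.3 to 120 ± 15.1 reads, by 1.35 ± 0.24 (chromosome 4, 43349260 to 43349460).
The highest members changed little or moderately. The RMER1B peak 27.6 kb from 1700055D16Rik averaged 400.8 reads and differed by -0.09 ± 0.08, and the RMER1A peak 40.3 kb from 1700073E17Rik averaged 370.5 reads and differed by -0.11 ± 0.12, both short of the test (adjusted p = 0.390 and 0.465 by limma). The RMER1B peak 16.9 kb upstream of Uox, the urate oxidase gene, averaged 388.6 reads and fell by -0.55 ± 0.08, with 378 to 519 reads in the fed and 281 to 352 in the fasted libraries.

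Peaks at one place did not always have like fasting values. Of the 20 places with several members, the RMER1A copy in Tns1 had 3 windows within 295 bp that differed by -0.16 ± 0.08, 0.33 ± 0.12 and 0.71 ± 0.23, of which only the last passed the test. On the RMER19B copy in an intron 12.0 kb from the start of Scaf11, which encodes a splicing-related protein, the window at 96448745 to 96448945 of chromosome 15 fell by -1.06 ± 0.18 and the one 264 bp further differed by -0.06 ± 0.15. On the RMER1B copy at 8030423F21Rik the window with 356 reads fell by -0.63 ± 0.13 and the one 303 bp away, with 51.0 reads, differed by -0.05 ± 0.16. The 2 windows at Hectd2os fell by -1.54 ± 0.31 and -1.26 ± 0.37, and those at 4930440C22Rik, 4930455C13Rik, Gm29684, Trp53bp2 and Tmem45b all fell. The second window at Hectd2os no longer passed without fed letter A (-1.26), B (-1.17) or C (-1.35). Nor did one or both windows at Trp53bp2, at -0.62 and -0.49, without fed letter A, B or C or fasted letter A (-0.69 to -0.40). At Ubl7 one window fell by -0.59 ± 0.15, a call lost without fed letter B (-0.56) or fasted letter A (-0.51), and the other differed by -0.38 ± 0.15. At Slc16a10 (0.11 and 0.27) and Mir3072 (-0.28 and 0.02) neither window passed. The differences between windows of one place were not tested.

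Fresh and frozen liver gave like fasting values. In fresh liver 101 members were lower and 10 higher (16.1% and 11.4% of all peaks), and in frozen liver 93 and 16 (15% and 12.8%). Without fed letter B or fed letter C, 10 members were higher in frozen liver (7.36% and 10.3% of all peaks). The medians were -0.40 in fresh and -0.48 in frozen liver, and 83 members were lower in both (12.1% of all peaks). The sign differed between preparations at 16 members (8.0%, against 16.6% of all peaks), which can follow in part from the choice of the families. Across the members the differences of the 2 preparations correlated with r = 0.935 (200 members, which are not independent, since both preparations come from the same 6 mice). The authors' deposited table lists 93 members as lower and 7 as higher in fresh liver, where 14.1% of all peaks are lower and 8.93% higher, and 99 and 17 in frozen liver, where 16% are lower and 13.5% higher. A test of whether the effect of fasting differed between fresh and frozen liver passed at 0 members and at 0 of all peaks (14 members had an unadjusted p under 0.05 by limma, and 5.14% of all peaks did). With the letter as a block, 4 members passed, all with a stronger fall in frozen liver, where 0.396% of all peaks passed in this direction.

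**Figure D3:**
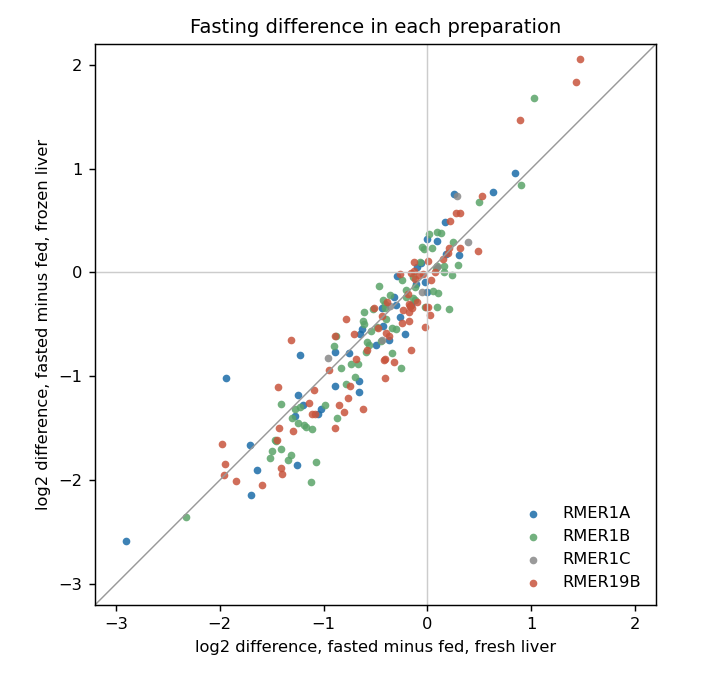
Fasting difference of each member in fresh liver (horizontal axis) and in frozen liver (vertical axis), both as log2 of fasted minus fed, with one colour per repeat name and a grey line of equality. The 200 points follow the line with r = 0.935, and 136 lie further from 0 in frozen than in fresh liver. Over all peaks 33381 of 52530 do, and over distal peaks 22178 of 33996, so the count is near the background.

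Freezing was compared over the same 6 livers, but the fit did not pair the fresh and frozen library of a liver. After freezing 91 members were lower and 23 higher, against 32.8% and 28.7% of all peaks and 35.5% and 23.9% of distal peaks. With the letter as a block 107 members were lower and 35 higher (37.9% and 32.2% of all peaks). The values below are from the unpaired fit. The median log2 difference, frozen minus fresh, was -0.22 over the members, -0.11 over distal peaks and -0.05 over all peaks. All 6 frozen libraries lay below all 6 fresh ones at 11 members (11.7% of all peaks do) and above them at 10 (15.2%). RMER19B had 39 lower and 8 higher peaks of 75 and a median of -0.31, RMER1B 34 and 7 of 76 with -0.21, RMER1A 16 and 5 of 42 with -0.15, and RMER1C 2 and 3 of 7 with -0.10. Members in introns had 42 lower of 77 and intergenic members 49 of 123.
Level moved with this comparison. Of the 67 members with the fewest reads 41 were lower after freezing and 0 higher, and of the 67 with the most reads 21 were lower and 13 higher. Of other distal peaks below the median member in reads 44.2% were lower and 12.1% higher, and of those above it 26.2% and 36.7%. The part of read level in the freezing values was not tested.
Among members above the median level, the RMER1B peak 23.6 kb from Tnfaip6, a hyaluronan-binding protein gene, was lowered most (chromosome 2, 52014365 to 52014565). It held 201, 238 and 215 reads in fresh fed and 111, 107 and 112 in frozen fed libraries, and 90.9, 102 and 72.3 in fresh fasted and 47.3, 46.2 and 31.2 in frozen fasted libraries. Freezing lowered it within each state, by -1.03 ± 0.11, and fasting lowered it by -1.35 ± 0.14, so that the 4 groups stood apart. The RMER1B peak 61.7 kb from Fxr1, an RNA-binding protein gene, was lower after freezing by -0.997 ± 0.17, and the peak near Ambp by -0.91 ± 0.14.
The largest rise after freezing was at an RMER19B peak 96.0 kb from Sipa1l3 (chromosome 7, 29601405 to 29601605), with 84.2 ± 12.7 reads in fresh and 154 ± 20.8 in frozen libraries (SD, n = 6) and a difference of 0.87 ± 0.11. Next came an RMER19B peak 6.97 kb from 9330175E14Rik at 0.70 ± 0.10 and an RMER1B peak in intron 2 of Abcc2, which encodes an efflux pump of the bile canaliculus, at 0.66 ± 0.08. The Abcc2 peak held 130 to 157 reads in the fresh and 181 to 262 in the frozen libraries. The 2 windows on the RMER1B copy 16.1 kb upstream of Hpgd, the gene of a prostaglandin-degrading enzyme, rose by 0.59 ± 0.06 and 0.65 ± 0.06 after freezing and differed by 0.01 ± 0.07 and 0.06 ± 0.08 with fasting.

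The nearest genes were many and mostly had a single member. The 200 members were nearest to 175 genes, 154 of the members to a protein-coding gene, 32 to a lncRNA gene, 9 to a miRNA gene and 5 to a gene of another class, and 108 lay upstream of the start. Of the genes, 21 were nearest to more than 1 member, and for 20 of these the members lay at a single place. Only Gm6559 had members at 2 places, an RMER19B peak that fell by -1.23 ± 0.17 and an RMER1B peak 42.0 kb away at -0.13 ± 0.32. The genes with 3 members were Abcc12, Tns1, Apol7a, of the apolipoprotein L family, and 1700073E17Rik. At Apol7a, 3 windows on RMER1A held 348, 180 and 117 reads and none passed the fasting test, with differences from -0.31 to -0.06, although all 3 passed as lower after scaling to peaks near gene starts (-0.43 to -0.18). At 1700073E17Rik none of the 3 passed, and without fasted letter B one of them did (-1.09).
By the authors' annotation the fall, which follows from how the families were chosen, was found at all distances from gene starts. Within 10 kb of a start 34 of 55 members were lower with a median of -0.59, from 10 to 25 kb 31 of 65 with -0.32, from 25 to 100 kb 31 of 62 with -0.44, and beyond 100 kb 10 of 18 with -0.75. Members in introns had 45 lower and 6 higher of 77, and intergenic members 61 and 9 of 123. Of all distal peaks 25.4% were lower and 14.8% higher. Shares of all peaks in each of these classes are not given here, and nothing is read from the counts.
In the median, peaks around the members differed less with fasting. Other distal peaks were present within 100 kb of 183 members, and the median of their medians was -0.02, against -0.42 for these members. The member was below the median of its surroundings at 134 of these 183 members (73.2%), which follows in part from the choice of the families. The 2 values correlated weakly over the 183 members (r = 0.248), which share libraries and scaling. At the Magi3 peak the 2 surrounding peaks had a median of 0.10, near Ambp 9 peaks had 0.06 and near Gm16551 9 peaks had -0.14. At Tnfaip6 a single peak within 100 kb was at 0.52. Other members lay among peaks that were as low or lower. The 4 peaks around the pair at Gm29684, which fell by -1.21 and -1.17, had a median of -1.49, and the 3 around the pair at Tmem45b, which fell by -0.51 and -0.55, also had -1.49. The RMER19B peak at Gm6559 had 7 peaks around it with a median of -1.39, the Ppfibp2 peak, which fell by -0.75, had 5 with -0.80, and the Fxr1 peak, which fell by -1.32, had 1 at -0.84.

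**Figure D4:**
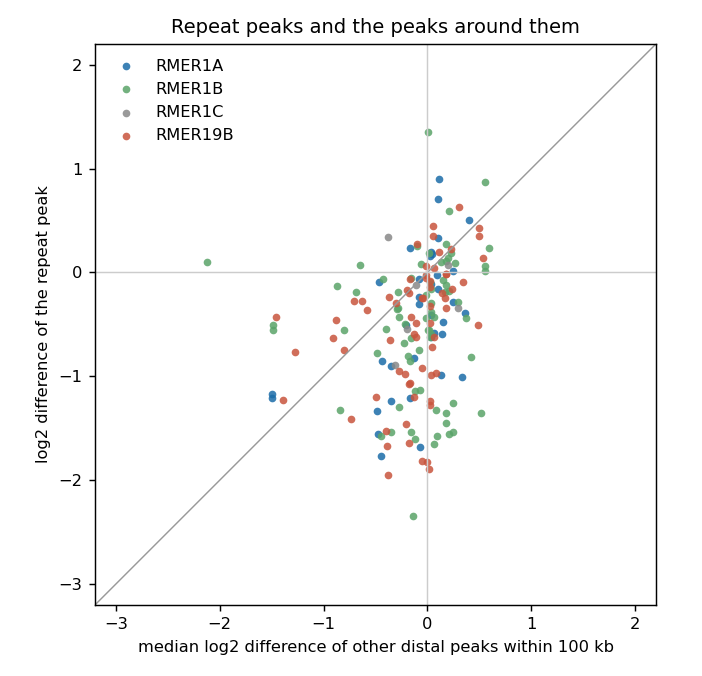
Fasting difference of each member (vertical axis, log2 of fasted minus fed) against the median of the other distal peaks within 100 kb of it (horizontal axis), for the 183 members with such peaks, with one colour per repeat name and a grey line of equality. The medians of the surroundings gather near 0, and 134 of the 183 points lie under the line.

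Promoters of the nearest genes showed no such fall in the median. The nearest genes of 124 members had peaks within 1 kb of their start, with a median difference of 0.11, and over these members r between the member and the promoter was 0.147. Of the 64 genes with a promoter peak that were nearest to a fallen member, 8 had a promoter peak that was lower and 14 one that was higher in fasted mice. Over all 11081 genes with a promoter peak, 6.37% had a lower and 27.1% a higher one. The 8 are a larger and the 14 a smaller share of the 64 genes than these, which was not tested. Which gene a member acts on, if any, is not known from these data.

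Copies of a family could also deviate together among mice of one group. For each pair of members, the deviations of the 12 libraries from their 4 group means were correlated. The median r over the 19900 pairs was 0.0446, with quartiles of -0.288 and 0.358, and the median between members and other distal peaks was 0.00647. It was 0.0788 within RMER1A, 0.0743 within RMER1B, 0.0973 between RMER1A and RMER1B, 0.0128 within RMER19B and -0.00343 within RMER1C. Among the 27 names with 40 or more peaks the medians ran from -0.0180 to 0.0985, and RMER1A, RMER1B and RMER19B ranked 3rd, 4th and 15th from the highest. A value this close to 0 over 12 libraries that share mice and scaling is no finding.
The median r was higher among peaks called lower in fasted mice, on repeats and elsewhere. These peaks were chosen by their values in the same 12 libraries, and the part of that choice in r was not tested. The median r was 0.152 within the 106 fallen members, 0.204 within the 66 of these on RMER1 names and 0.0941 within the 40 on RMER19B, and 0.174 within the 8528 other distal peaks that were lower in fasted mice. Members at one place, whose windows can share reads, had a median r of 0.637, and 23 of their 28 pairs were positive. Among the 3 fasted mice, letter B was the highest in both preparations at 20 of 42 RMER1A peaks (47.6%), 29 of 76 RMER1B peaks (38.2%), 0 of 7 RMER1C peaks and 16 of 75 RMER19B peaks (21.3%). Letter C was the highest at 10, 19, 2 and 24 peaks of these names, and so more often than B at RMER19B (32%). Over all members B was the highest at 65, C at 55 and A at 15. Of the other distal peaks lower in fasted mice B was the highest at 40.7%, C at 9.93% and A at 8.17%, and of all distal peaks B at 21.3%, C at 22.0% and A at 11.9%. Without fasted letter B the median r over all pairs was 0.00435, without fasted letter A 0.0186 and without fasted letter C 0.0879. The fresh library of fasted letter B was the deepest of the 12, at 14.5 M reads, and the part of depth in these deviations was not tested.
The members whose deviations followed the other members most were the RMER19B peaks at Rnf32, Slc7a15 and Ppfibp2, a liprin gene, and the RMER1A peak 77.5 kb from Nectin1, a cell adhesion gene, with a mean r of 0.165, 0.158, 0.156 and 0.158 to the other members over 12 libraries. In each of these 4, fasted letter B was the highest of the fasted libraries in both preparations. The Nectin1 peak held 25.1, 39.0 and 31.6 reads in the fresh fasted libraries A, B and C and 24.6, 34.9 and 24.5 in the frozen ones, against 78.6 to 108 in the fed libraries.

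**Figure D5:**
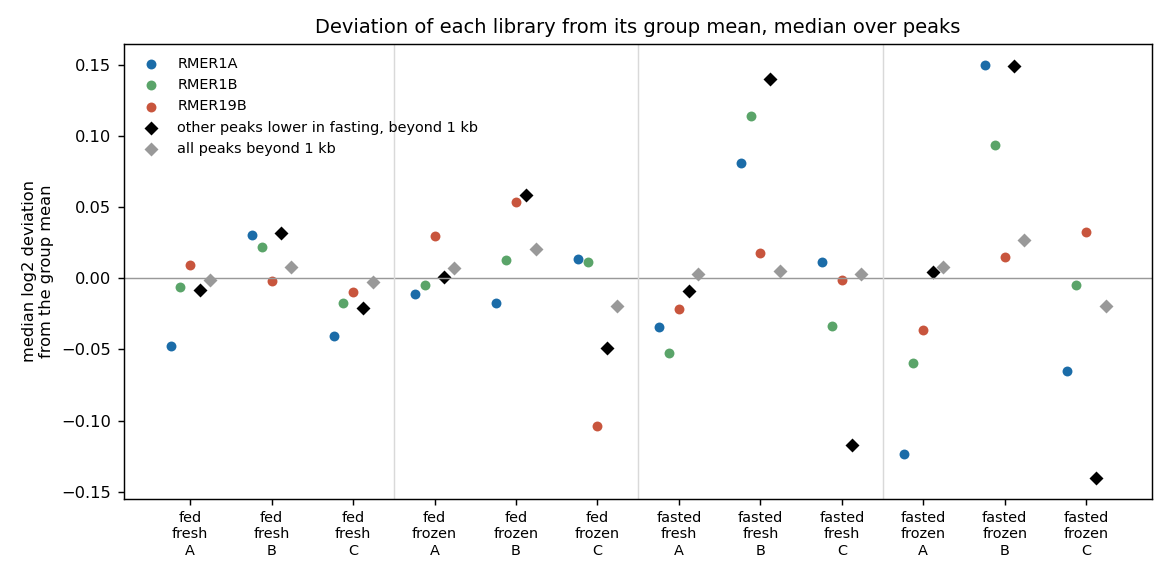
Median log2 deviation from the group mean in each of the 12 libraries (horizontal axis, by feeding state, preparation and letter), with circles for RMER1A, RMER1B and RMER19B and diamonds for the other distal peaks lower in fasted mice (black) and all distal peaks (grey). In the fasted letter B libraries RMER1A lies at 0.08 and 0.15 and RMER1B at 0.11 and 0.09, beside 0.14 and 0.15 for the other peaks lower in fasted mice.

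Genes that keep retroelements silent were taken from a list of 24, of which 22 had 37 peaks within 1 kb of their start. In fasted mice 8 of these peaks were higher and 2 lower, with a median difference of 0.16. Of all peaks within 1 kb of a gene start 19.7% were higher and 4.59% lower, so both counts are near the background. The higher ones were at Rif1 (0.42 and 0.42), Dnmt3a (0.28 and 0.26), Cbx3 (0.47), Atf7ip (0.35), Cbx5 (0.31) and Suv39h2 (0.22), which encode a heterochromatin-associated protein, a DNA methyltransferase, 2 HP1 proteins, a SETDB1 partner and a histone methyltransferase. The lower ones were a peak of Zfp809, a zinc finger repressor of retroviruses, at -0.62 and a peak of Daxx, a histone chaperone, at -0.52. The other peaks of these genes, at 0.16 and 0.14 for Zfp809 and at 0.0045 for Daxx, did not pass. The peaks of Setdb1 and Trim28 did not pass, with 0.10 at Setdb1 and 0.25 and 0.20 at Trim28. Accessibility of a promoter is not a measure of the protein.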

How the data were processed

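Per the labels' protocols, transposition of 25000 bead-bound nuclei ran for 30 min at 37 °C, with 12 cycles of PCR afterwards. Tools listed in the submitters' processing notes, without roles, are DESeq2, HOMER, SAMtools and BWA 0.7.5a-r405, with build mm10. Handling of duplicates, and of reads that match several copies, is not stated. The signal columns deposited by the authors hold reads per merged peak, normalized by 1 factor per library. Log2 fold changes and adjusted p-values per preparation, also deposited by the authors, are quoted only as theirs, and the deposited peak score was not used. Column letters match no mouse number. Same-letter fresh and frozen columns deviated together (r from 0.329 to 0.640, highest other r 0.0213), so each letter was averaged as 1 mouse, a pairing that comes from the data.

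Values were taken as log2(value + 1) and fitted over all 52530 peaks in R 4.3.3 with limma 3.58.1, two-sided, with a trended prior and Benjamini-Hochberg adjustment (threshold 0.05). Fasting was tested on 3 against 3 mice, freezing over 12 libraries with feeding state as covariate, and their interaction over 12 libraries. The main freezing and interaction fits did not pair the libraries of a letter. The p-values measure the spread between these mice and libraries only. The fit was tested on simulated data. Members and lists were chosen with earlier results of these data known. Members were named by rule: the 5 highest and 5 lowest fasting and 3 highest and 3 lowest freezing differences above the median level, the 3 highest levels, the 4 highest mean r, members within 1 kb of a start, and genes nearest to more than 1 member (not all are given). Sequences and motif shares come from RefSeq tables (GRCm38.p6); all 200 nearest genes were matched by symbol or accession. No genome was used, so other member sequences are not given.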

Additional observations from a re-analysis of the deposited data

Results flagged for a closer look

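At 4 members the fasting effect differed between fresh and frozen liver when the letter was kept as a block (limma, adjusted p under 0.05), a fit chosen after seeing the data. Without the block none passed. The RMER1B peak upstream of Wbp2 at chromosome 11, 116091639 to 116091839, fell by -0.87 ± 0.11 (SE) in fresh and by -1.40 ± 0.17 in frozen liver, a difference of -0.53 (adjusted p = 0.0491). Its fed libraries held 229 to 241 reads in fresh and 278 to 339 in frozen liver, while the fasted ones held 113 to 150 and 89.0 to 155.

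The RMER1A peak 39.9 kb from Thnsl1 (chromosome 2, 21245560 to 21245760) differed between preparations by -0.50 (adjusted p = 0.0258), with -0.65 ± 0.09 in fresh and -1.15 ± 0.14 in frozen liver. At the RMER19B peak 78.9 kb from Popdc3 (chromosome 10, 45210345 to 45210545) the difference was -0.59 (adjusted p = 0.00735), with -0.16 ± 0.12 and -0.75 ± 0.13. There the fresh fasted libraries held 305, 303 and 429 reads, overlapping the fresh fed ones at 340 to 414, whereas the frozen fasted libraries at 129 to 182 lay below the frozen fed ones at 247 to 291. At the RMER19B peak 7.24 kb from Wdr45b (chromosome 11, 121347106 to 121347306) it was -0.50 (adjusted p = 0.0481), with -0.03 ± 0.09 in fresh and -0.52 ± 0.15 in frozen liver.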

How the results depend on the processing

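Without the lowest 25% of peaks, which left 133 members, 65 were lower and 9 higher in fasted mice (median -0.35), 66 and 5 in fresh and 59 lower in frozen liver, and 50 were lower after freezing (median -0.15). Fewer peaks were tested there, and 16.4% of them were higher and 13.5% lower in fasted mice. In fresh liver 11.3% of them were lower and 10.7% higher, in frozen liver 11.4% were lower, and after freezing 27.2% were lower. Scaling libraries to equal medians near gene starts moved the fasting median of all peaks from 0.05 to -0.08 and that of the members to -0.56. With it 8 members were higher and 128 lower (7.74% and 24.5% of all peaks), and 8 were higher in frozen liver (6.54%). The freezing median of the members moved to -0.29. Leaving out a letter gave 84 to 111 lower and 10 to 14 higher members (12.3% to 18.3% and 9.40% to 15.3% of all peaks). In frozen liver 10 to 14 members were higher (7.36% to 11.6% of all peaks), and the freezing median was -0.28 to -0.23. With the replicate block on the letter, 107 members were lower and 35 higher after freezing (37.9% and 32.2% of all peaks). With the same block 4 members in place of 0 differed between preparations, all in the direction in which 0.396% of all peaks passed. The causes were not tested. The median r of 0.0446 was 0.0858 after that scaling, -0.00305 for fresh minus frozen within a letter, 0.0788 less the median deviation of other peaks lower in fasting (chosen after seeing the data), and 0.00435 to 0.0879 without a letter.

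Fasting differences that did not pass the test and changed sign were, after that scaling, -0.013 at Slc16a10, -0.11 and -0.063 at Hpgd and -0.11 at Mir3072. Leaving out a letter gave -0.24 to 0.0019 at Sipa1l3, -0.14 to 0.014 at Scaf11, -0.030 to 0.061 and -0.019 to 0.12 at Hpgd, -0.066 to 0.089 at Mir3072, -0.14 to 0.028 at 8030423F21Rik and -0.46 to 0.26 at Gm6559. Of the other fasting values of named members, 521 kept direction and side of the threshold, 21 no longer passed and 21 newly passed. The least deep library held 34 reads at its median member.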
